A study of Rattus norvegicus with 6 samples.

Results

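Genes for antioxidant enzymes and for the transcription factor Nrf2 were examined in rat hippocampus after mild or intense treadmill training. The set holds 10 genes (Sod1, Sod2, Sod3, Cat, Gpx1, Gpx3, Gpx4, Hmox1, Nfe2l2 and Nqo1) of 35561 distinct gene or transcript names on the array. They were chosen by name, though with earlier results of these data known, and every probe carrying such a name was kept. This gave 12 probes, because Sod1 and Gpx1 have 2 probes each and the other genes 1 each. The RefSeq accession listed for every probe led to the same symbol, and no further probe was found by accession.

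All groups were male Wistar rats, described as 11 weeks old at the start. CONT rats were sedentary and rested on the treadmill. Rats trained by mild exercise (ME) ran at 15 m/min, below the lactate threshold, after 1 week of habituation. Rats trained by intense exercise (IE) ran at 40 m/min, above that threshold, after 4 weeks of habituation. Both trained groups ran for 60 min a day, 5 times a week. The study's methods count the 6 weeks of training with the habituation included, so IE rats had fewer weeks at the set speed than ME rats, whereas the series record counts the 6 weeks after it. Slight electric shocks were used while the runners were habituated, and some IE rats received further foot shocks during training. The shocks therefore differed between the groups along with the speed. IE rats that refused to run were also excluded from the study. The series record places tissue collection 24 or 36 hours after the last session, and the study's own text gives a longer interval. Equal amounts of RNA (1000 ng) from 5 rats made up the single pool of each group, so differences between rats were not measured and no test over animals could be made.

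The pools were labelled with the dyes Cy3 and Cy5 and compared in pairs on 6 arrays. There were 3 pairings, each trained group against CONT and IE against ME, and each had 2 arrays, the second with the dyes exchanged between the pools (a dye swap). Ratios below are log2 ratios turned so that a positive value means more signal in the first-named pool, and errors are the SD of the 2 arrays of a swap. That SD holds the dye effect and the spotting error, not the spread between animals. The CONT pool served for both trained groups, so those comparisons are not independent. The arrays of IE vs ME lay on another slide and were extracted with a later software version, so signals are given within a slide here.

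Superoxide dismutases turn superoxide into hydrogen peroxide, and catalase and the glutathione peroxidases remove the peroxide. Nrf2, the product of Nfe2l2, is held in the cytoplasm by Keap1, which presents it for degradation. When electrophiles or oxidants modify Keap1, Nrf2 builds up, enters the nucleus, pairs with a small Maf protein and binds antioxidant response elements, and Hmox1 and Nqo1 are among its best known targets. Much of this control acts on the Nrf2 protein, so the Nfe2l2 transcript level is not a measure of Nrf2 activity. Neurons rely in part on glutathione precursors from astrocytes. The RNA came from whole hippocampus, where fewer cells of a type and less RNA per cell cannot be told apart.

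The probes are oligonucleotides of 60 bases. The 4 sequences on which the results below turn most are given 5′ to 3′ as deposited with the arrays. They are Gpx3, whose 2 arrays disagreed most, Nqo1 and Gpx4, and Hmox1, which was spotted 10 times. Nqo1 and Gpx4 read brighter in the same dye in every swap, as did other probes of the set, Sod2 among them.
Gpx3: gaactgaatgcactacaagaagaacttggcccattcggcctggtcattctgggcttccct
Nqo1: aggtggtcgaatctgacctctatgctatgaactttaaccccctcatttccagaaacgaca
Gpx4: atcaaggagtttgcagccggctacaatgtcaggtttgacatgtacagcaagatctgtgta
Hmox1: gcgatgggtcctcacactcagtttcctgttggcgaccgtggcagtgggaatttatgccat
In the rat build rn3 used by the array annotation, the Gpx3 probe is listed at chr10:40329751-40331218 on the plus strand, the Nqo1 probe at chr19:37261860-37261919 on the minus strand and the Gpx4 probe at chr7:11163821-11163880 on the minus strand. The Hmox1 probe is listed at chr19:13974162-13974221 on the plus strand. The Gpx3 interval covers 1468 bases for a probe of 60, as the interval of a probe that joins separate exons does. The intervals of the Cat probe (1945 bases) and of the second Sod1 probe (1008 bases) are likewise longer than their probes. That of the Sod2 probe covers only 34 bases, so its listed interval does not hold the whole probe.

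Each array held 43379 spots of gene probes, of which 92 to 302 were marked as outliers and left out. Between 66.5% and 74.4% of spots were well above background in both dyes, and 0 were saturated. All 12 probes of the antioxidant set were well above background in both dyes on all 6 arrays, and none of their spots was an outlier. Probes for marker genes of hippocampal neurons were well above background too, 13 of 13 on the arrays against CONT.

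No gene of the set was called up- or down-regulated in any of the 3 comparisons. The call required a Cy5/Cy3 ratio of 1.5 or more in 1 dye orientation, a ratio of 0.75 or less in the opposite orientation, and a software p below 0.01 for each array. With ME, 0 of 12 probes were called, where 0.122% of all 40922 probes with a value were (45 up and 5 down). With IE, 0 of 12 were called against 0.0293% of all probes (10 up and 2 down), and in IE vs ME 0 of 12 against 0.0732% (5 up and 25 down). These shares are so low that 12 probes would seldom hold a call, so the counts of 0 do not set the genes apart from the rest of the array. Without the p threshold the counts stayed at 0 of 12, against 0.987%, 0.667% and 1.06% of all probes.

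The ratios themselves were small. The median of the 12 probes was 0.031 for ME vs CONT (lowest -0.11, highest 0.078) and 0.049 for IE vs CONT (-0.090 to 0.18). In IE vs ME it was -0.016 (-0.12 to 0.20). The medians of all probes were 0, 0 and -0.002. On single arrays the median of the 12 ran from 0.001 to 0.051 in ME vs CONT and from -0.078 to 0.057 in IE vs ME, so in the latter its sign depended on the array. The largest mean of any probe in any comparison corresponded to 1.15-fold, for Gpx3 in IE vs ME, where other background corrections gave less. Without Gpx3 the mean largest in size was a decrease, that of Nqo1 in IE vs ME at 0.920-fold. Among probes well above background, 5% lay below -0.148 and 5% above 0.159 with ME, and all 12 antioxidant probes lay inside that range. With IE and in IE vs ME 11 of 12 lay inside the corresponding range, and the exception was Gpx3 both times.

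Few probes kept their sign when the dyes were swapped. In ME vs CONT 1 of 12 did. In IE vs CONT there were 5, and 3 in IE vs ME. Over all probes well above background the shares were 28.6%, 28.2% and 26.7%, so opposite signs on the 2 arrays were the rule on the whole array. The mean was smaller than its SD for 11, 10 and 9 of the 12 probes. Of 72 readings (12 probes on 6 arrays), 2 had a software p below 0.01, and both belonged to Gpx3 and pointed in opposite directions.

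**Figure D1:**
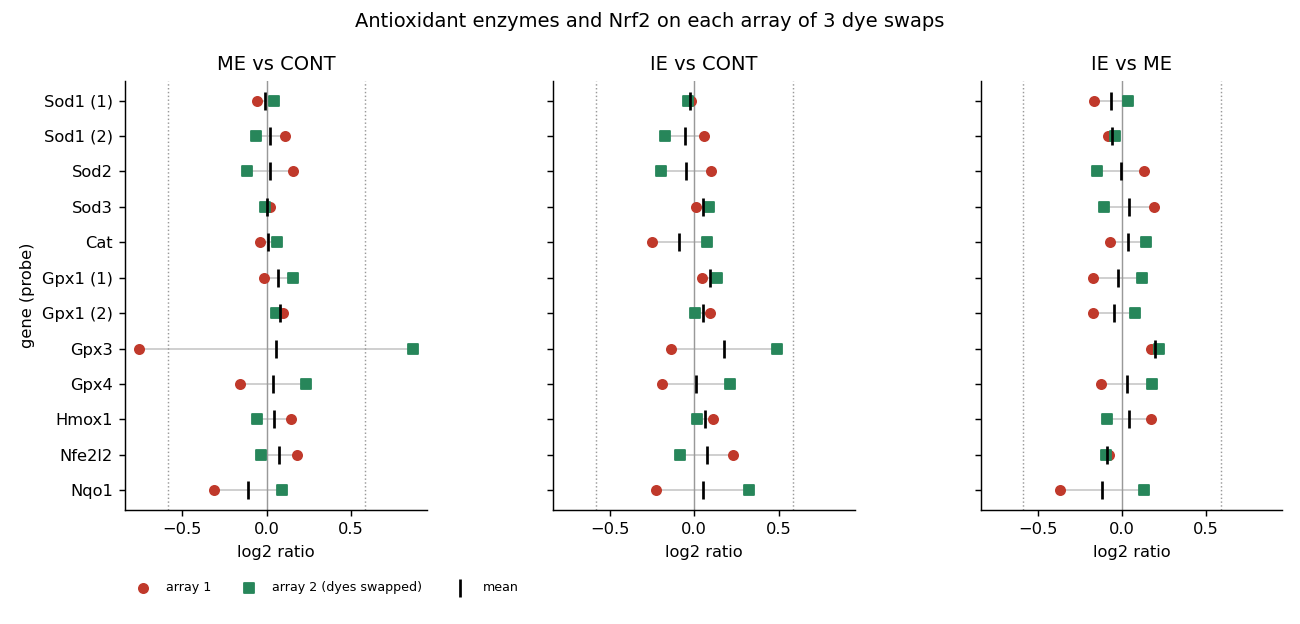
Log2 ratio of each antioxidant probe on array 1 (circles) and array 2 (squares, dyes swapped) of each comparison, with the mean as a bar; dotted lines mark 1.5-fold in each direction. Gpx3 crosses both lines in ME vs CONT, at -0.76 and 0.87, while every other reading lies between -0.37 and 0.49.

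Among the superoxide dismutases, 2 of 12 mean ratios were larger than the SD of their arrays, both for Sod1. Sod1, the copper and zinc enzyme of the cytosol, gave the strongest signal over background of the set, at least 146 times background with either probe. Its first probe read -0.057 and 0.043 on the 2 arrays of ME vs CONT, -0.019 and -0.035 in IE vs CONT and -0.17 and 0.037 in IE vs ME. The second probe read 0.11 and -0.065, then 0.059 and -0.17, then -0.080 and -0.041. The 2 probes had means of -0.007 and 0.023 with ME, -0.027 and -0.058 for IE and -0.064 and -0.060 between IE and ME, so they had the same sign in both comparisons that involve IE and differed in sign with ME. The means larger than their SD were those of the second probe in IE vs ME (-0.060 ± 0.027) and of the first in IE vs CONT (-0.027 ± 0.012).

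Sod2, the manganese enzyme of mitochondria, read higher with whichever pool carried Cy5. Its ratios were 0.15 and -0.12 in ME vs CONT, 0.10 and -0.20 in IE vs CONT and 0.13 and -0.14 in IE vs ME. The means were therefore close to 0, at 0.018 ± 0.19, -0.047 ± 0.21 and -0.006 ± 0.20. Sod3, the secreted enzyme bound to the extracellular matrix, read 0.018 and -0.009 with ME, which was the smallest difference between arrays of the set in that comparison. With IE it read 0.010 and 0.089, both above 0, with a mean of 0.049 ± 0.056. In IE vs ME its arrays disagreed, at 0.19 and -0.10 (mean 0.041 ± 0.21).

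Cat encodes catalase, which breaks down hydrogen peroxide in peroxisomes. Its arrays gave -0.039 and 0.061 for ME, then -0.25 and 0.073 for IE, with means of 0.011 ± 0.071 and -0.090 ± 0.23. In IE vs ME it read -0.068 and 0.14 (0.038 ± 0.15). The lowest of these readings, on the first array with IE, had a software p of 0.219. The probe stood 4.7 to 9.1 times over background on the slide with CONT and 3.8 to 4.3 times on the other.

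Of the glutathione peroxidases, Gpx1, the abundant cytosolic enzyme, was measured by 2 probes that gave like values. With ME their means were 0.070 ± 0.12 and 0.078 ± 0.028, with IE 0.091 ± 0.065 and 0.049 ± 0.066, and in IE vs ME -0.026 ± 0.21 and -0.046 ± 0.17. The second probe with ME, at 0.098 and 0.058, was the only probe of the set to stay above 0 on both arrays of that comparison. Both probes stayed above 0 on both arrays with IE, at 0.045 and 0.136 for the first and 0.095 and 0.002 for the second. Of the 4 arrays against CONT, 3 gave a positive ratio for the first probe and 4 for the second, with a highest value of 0.155. The size of these means was ordinary for the array, since they exceeded in absolute value 53.1% to 76.9% of the probes well above background.

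Gpx4, which reduces lipid hydroperoxides in membranes and guards cells against ferroptosis, had arrays that disagreed in the same way each time, with -0.16 and 0.24 in ME vs CONT, -0.19 and 0.21 in IE vs CONT and -0.12 and 0.18 in IE vs ME. The pool labelled with Cy3 was the brighter on all 6 arrays. Averaging over the dyes left 0.040 ± 0.28, 0.010 ± 0.28 and 0.028 ± 0.21.

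Gpx3, the glutathione peroxidase secreted into plasma, was the exception of the set. In ME vs CONT its processed signal was 32.6 in ME and 55.1 in CONT on the first array, and 60.3 in ME and 33.0 in CONT on the second. The first array gave -0.76 with a software p of 0.00216 and the second gave 0.87 with a software p of 0.000838, so each array taken alone passed the threshold, in opposite directions. The brighter channel was Cy3 both times, and the mean was 0.058 ± 1.15. With IE the readings were -0.14 and 0.49 (0.18 ± 0.45), and only the second had a software p below 0.05, at 0.0454. In IE vs ME both arrays read above 0, at 0.17 and 0.22 (0.20 ± 0.031), with software p-values of 0.522 and 0.423. That mean fell to 0.095 with normexp correction and loess and to 0.064 with loess and no background subtraction, so its size rested on the background correction. Its signal was the closest to background of the set, 1.59 to 1.65 times background in ME vs CONT, 1.77 to 2.20 times in IE vs CONT and 2.28 to 3.42 times in IE vs ME. Of the comparisons against CONT, which share a slide, ME vs CONT had the wider swing between arrays and the lower signal over background. IE vs ME lay on the other slide and is not ranked with them, and the cause of the swings was not tested.

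Nfe2l2, which encodes Nrf2, read 0.18 and -0.032 with ME and 0.23 and -0.086 with IE. Its means against CONT were alike, 0.074 ± 0.15 and 0.073 ± 0.22. In IE vs ME both arrays were below 0, at -0.077 and -0.097, and the mean of -0.087 ± 0.014 was larger than its SD. That value corresponds to 0.941-fold, and the software p-values were 0.707 and 0.636. With normexp correction and loess it was -0.059 and with loess and no background subtraction -0.053.

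Nqo1, the quinone reductase used as a readout of Nrf2 activity, read -0.31 and 0.093 with ME, -0.23 and 0.33 for IE and -0.37 and 0.13 between IE and ME. The first array was below 0 and the second above 0 in all 3 swaps. The means were -0.11 ± 0.29, 0.049 ± 0.39 and -0.12 ± 0.35, of which the first and last were the lowest of the set in their comparisons. The sign with IE depended on the background correction: with normexp correction and loess it was -0.018. Nqo1 also stood close to background, at 2.00 to 2.94 times on the slide with CONT and 2.91 to 4.09 times on the other.

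Hmox1, the inducible heme oxygenase, could be followed within an array because its probe was spotted 10 times. In ME vs CONT its spots ran from 0.046 to 0.23 on the first array, all 10 above 0, and from -0.17 to -0.019 on the second, none above 0. The spots of the 2 arrays did not overlap, and the SD among spots of an array (0.067 and 0.049) was smaller than the SD between the arrays (0.14). With IE 8 and 6 of 10 spots were above 0, with means of 0.11 and 0.014. In IE vs ME all 10 spots of the first array were above 0, with a mean of 0.17, but only 1 of the second, with a mean of -0.089. The means over both dyes were 0.042 ± 0.14, 0.063 ± 0.070 and 0.041 ± 0.18. The first array had the higher mean in all 3 comparisons, and in 2 of them the means of the arrays lay on opposite sides of 0.

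**Figure D2:**
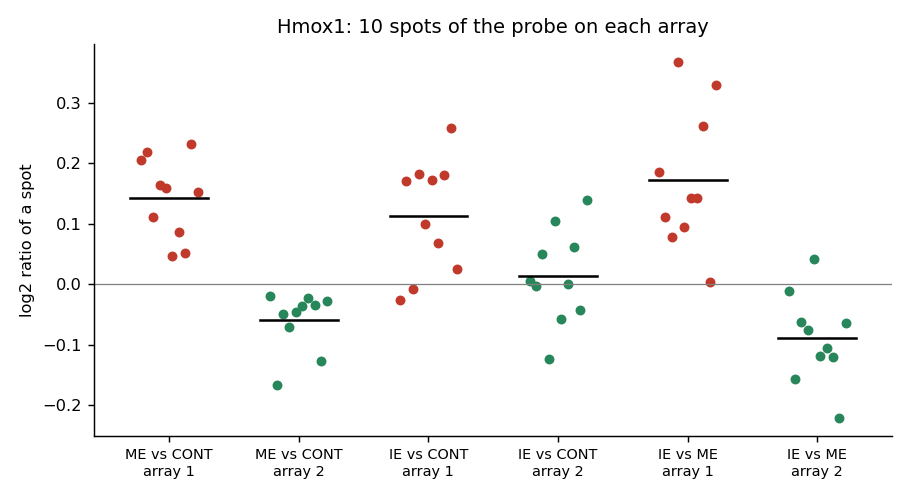
Log2 ratio of each of the 10 Hmox1 spots on each of the 6 arrays (points, spread sideways in file order) with the mean of the array as a bar. In ME vs CONT the spots of array 1 lie above 0 and those of array 2 below 0, without overlap.

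The offset between dyes, taken as the mean log2 of Cy5 over Cy3 on the 2 arrays of a swap, recurred from swap to swap. For 8 of 12 probes it had the same sign in all 3 swaps, 3 with Cy5 brighter (Sod2, Hmox1 and Nfe2l2) and 5 with Cy3 brighter (Cat, the first Gpx1 probe, Gpx3, Gpx4 and Nqo1). Over the 24716 probes well above background in every reading the share was 60.6%, near the 66.7% of the set. Sod2 was offset by 0.14, 0.15 and 0.14 and Gpx4 by -0.20, -0.20 and -0.15. Nqo1 was offset by -0.20, -0.28 and -0.25. Gpx3 did not repeat its size, with -0.81 in ME vs CONT, -0.32 in IE vs CONT and -0.022 in IE vs ME. A probe whose sign turns with the dyes has a dye offset larger in size than its mean ratio in that comparison. The mean ratio was the larger for 1 of 12 probes in ME vs CONT, 5 in IE vs CONT and 3 in IE vs ME. Over all probes well above background it was the larger for 28.6%, 28.2% and 26.7%, so a larger dye offset was not particular to these genes. The offset also holds spotting error.

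**Figure D3:**
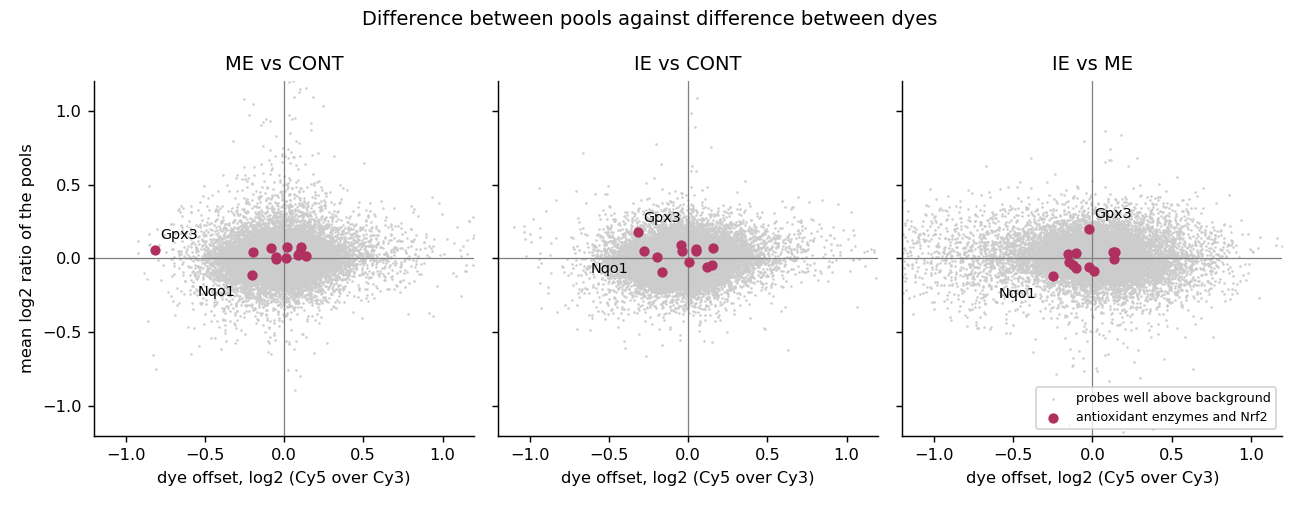
Mean log2 ratio of the pools (vertical) against the dye offset (horizontal) for the 12 antioxidant probes (large points) and all probes well above background (small points); probes beyond 1.2 on either axis are not drawn. The antioxidant probes spread more along the dye axis than along the pool axis, with Gpx3 at -0.81 in ME vs CONT.

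IE and ME were compared by a second route, as IE vs CONT minus ME vs CONT, and set beside the arrays that held both pools. The signs agreed for 8 of 12 probes, with a median absolute gap of 0.053 between the routes. Over the 24716 probes the signs agreed for 56.5% with a median gap of 0.058. Sod3 (0.045 and 0.041) and the second Sod1 probe (-0.080 and -0.060) gave nearly the same value by either route, while the first Sod1 probe gave -0.020 indirectly and -0.064 directly. Gpx3 was above 0 by both, at 0.12 indirectly and 0.20 directly. Nfe2l2 was at -0.001 indirectly and -0.087 directly, so its small deficit in IE vs ME did not appear against CONT. Nqo1 went the other way by each route, 0.16 indirectly and -0.12 directly, the widest gap of the set at 0.279. Cat, Gpx4 and the first Gpx1 probe also changed sign.

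**Figure D4:**
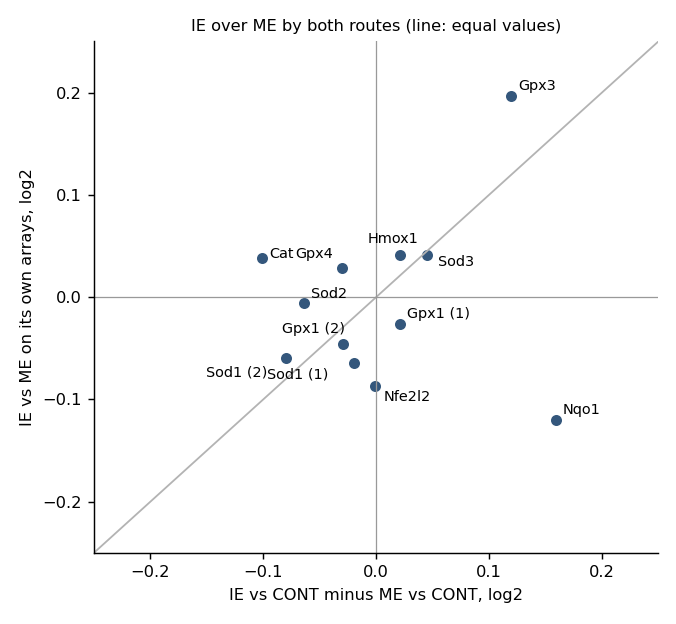
IE over ME for each antioxidant probe, as the difference of the comparisons against CONT (horizontal) and as measured directly (vertical), both in log2, with the line of equal values. Nqo1 lies farthest from the line, at 0.16 and -0.12.

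The pathway around these genes was read from 9 lists of 100 genes, 88 of which were on the array with 120 probes. None of the 120 probes was called in any comparison, against 0.122%, 0.0293% and 0.0732% of all probes, shares at which a list of this size would seldom hold a call. Of those well above background (105, 104 and 97), the medians were 0.007, -0.003 and -0.002. With ME 11 were above 0 and 12 below 0 on both arrays, with IE 6 and 9, and in IE vs ME 10 and 17.

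Among regulators, Keap1, which holds Nrf2 in the cytoplasm, had means of 0.014 ± 0.32 with ME and 0.052 ± 0.32 with IE, and its arrays read -0.13 and 0.13 in IE vs ME. The list of 14 Nrf2 partners and regulators (13 found, 16, 16 and 15 probes well above background) had medians of -0.007, -0.010 and 0. Of its probes well above background, the most negative that kept its sign with ME was Nfe2l3, a relative of Nrf2, at -0.21 ± 0.25.

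Glutathione synthesis was represented by Gclc and Gclm, the catalytic and modifier subunits of glutamate-cysteine ligase. Gclc had means of -0.042 ± 0.080 with ME, -0.098 ± 0.079 for IE and -0.006 ± 0.14 between IE and ME. Gclm had means of 0.12 ± 0.28 and -0.066 ± 0.053 against CONT. On the IE vs ME slide Gclm was well above background in 0 of its 4 channel readings and read -1.41 and 1.69, so it had no usable ratio there. Gsr, which regenerates reduced glutathione, had means of 0.031 ± 0.28, -0.13 ± 0.33 and 0.026 ± 0.16. Slc7a11, the cystine importer, was lower on both arrays with ME, at -0.10 and -0.29, with software p-values of 0.732 and 0.376. With IE it was lower on both arrays too, at -0.097 and -0.44, with 3 of its 4 channel readings well above background.

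In the glutathione S-transferase list, which attaches glutathione to electrophiles, 14 of 21 probes had a mean above 0 with ME, as did 14 of 21 for IE and 9 of 19 between IE and ME. On both arrays, 5 were above 0 and 3 below 0 with ME, 3 and 2 with IE, and 3 and 4 in IE vs ME. The counts with ME and with IE share the CONT pool. Among pathway probes well above background, Gstm2 gave the most negative ratio, -0.27 and -0.69 in IE vs ME (-0.48 ± 0.29). The second of these arrays had a software p of 0.00729 and the first 0.249, so it was not called. Gstm2 read -0.56 and 0.028 in IE vs CONT. Mgst1, a microsomal transferase, had the most positive ratio with IE among pathway probes well above background, at 0.19 ± 0.093, and Gstt1 read -0.13 and -0.14 with ME.

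The thioredoxin and peroxiredoxin list (17 genes, 16 found, 20 probes) had medians of -0.006, -0.014 and 0.007. Prdx1, a peroxiredoxin induced by Nrf2, had means of 0.083 ± 0.15 with ME, -0.012 ± 0.14 for IE and 0.018 ± 0.21 between IE and ME. The 4 probes of Txnrd1, cytosolic thioredoxin reductase, ran from -0.13 to 0.068 with ME, from -0.12 to 0.002 for IE and from -0.077 to 0.075 between IE and ME, with either sign in each comparison. Srxn1, which repairs oxidised peroxiredoxins, read -0.036 and -0.26 with IE, and Txnrd3, the thioredoxin reductase known from testis, -0.14 and -0.15 in IE vs ME.

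Hmox2, the constitutive heme oxygenase, had means of -0.009 and 0.034 for its 2 probes with ME, -0.032 and 0.010 for IE and -0.021 and 0.008 between IE and ME, all smaller in size than their SD. Ccs, the chaperone that loads copper into Sod1, had means of 0.025 ± 0.12, -0.016 ± 0.14 and 0.017 ± 0.14. Enzymes that make superoxide or hydrogen peroxide were dim, with 6, 6 and 5 of 10 probes well above background. Among them Duox1 read -0.013 and -0.22 with IE and Nox1 0.29 and 0.15 in IE vs ME, neither with a software p below 0.27.

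Probes for other tissues were called between the same pools. All 13 probes of the meninges and fibroblast list were above 0 on both arrays with ME (median 1.08, range 0.066 to 1.34), and 9 were called up. With IE none was called and the median was -0.024, and in IE vs ME 8 were called down (median -0.92). In the choroid plexus list 3 of 12 probes were called up with ME, 4 for IE and 2 between IE and ME, with 7 well above background each time and a highest ratio of 2.76 with IE. Of the probes called with IE, Kcnj13 was well above background in 3 of its 4 channel readings. In the cerebellum list 1 of 11 probes was called up with ME, Gabra6, which was well above background in 2 of its 4 channel readings. None was called in the lists for hippocampal neurons, blood cells, microglia and macrophages, endothelium and pericytes, astrocytes or oligodendrocytes. Of all probes 0.122%, 0.0293% and 0.0732% were called, so lists of this size would seldom hold a call. The hippocampal neuron medians were -0.047, -0.007 and 0.049. The part of these tissues in the antioxidant values was not tested.

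**Figure D5:**
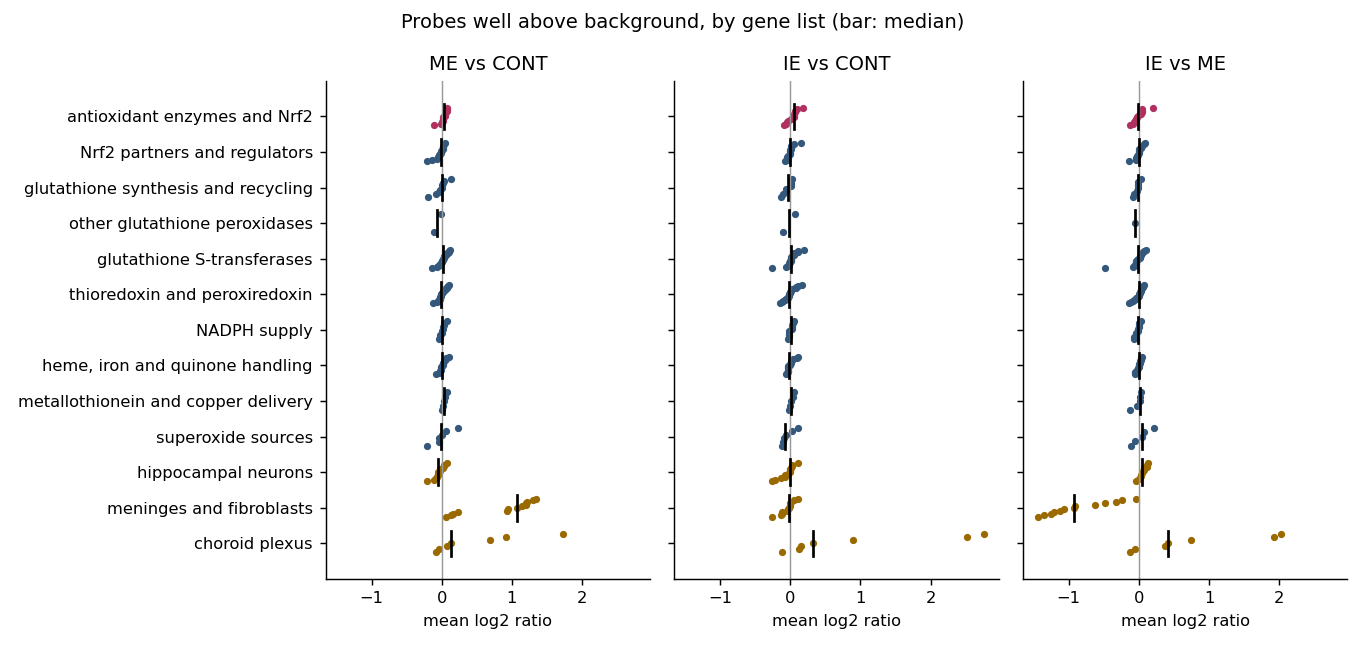
Mean log2 ratio of every probe well above background (points) in the antioxidant set, the 9 pathway lists and 3 marker lists, with the median of each list as a bar. The antioxidant and pathway lists sit around 0, while the meninges and fibroblast median is 1.08 with ME and -0.92 in IE vs ME.

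The promoters of the 10 genes, from 250 bases before to 50 after the start in the RefSeq table of build GRCr8, were searched on both strands for the core of the antioxidant response element, TGACNNNGC, where N is any base. It was present in 2 of 10, against 12.1% of 33469 promoters of 300 bases. The stretches around the matches are shown in the direction of the gene with the match in capitals, because Nrf2 is a member of the set and Sod2 the only enzyme of it with a match. A match is a run of letters, and binding was not measured.
Sod2: cgctgccgGCAGGGTCAgcgcctag
Nfe2l2: ctagccatTGACGCCGCctc
The Sod2 promoter is chr1:50050119-50050418 and the Nfe2l2 promoter chr3:81028950-81029249, both on the minus strand. The Sod2 match begins 35 bases before the start and reads on the opposite strand of the gene, and the Nfe2l2 match begins 38 bases after the start. In these windows the other 8 genes, Hmox1 and Nqo1 among them, hold no such letters. Sequence outside the windows was not searched, so an element farther from the start would have been missed. The 2 genes with a match had ratios of 0.018 and 0.074 with ME, inside the range of the other genes.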

How the data were processed

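Two-colour arrays of pooled rat hippocampal RNA were analysed, 6 in all. The authors ran Agilent Feature Extraction on the scans, in version 9.5.3.1 for the arrays against CONT (named in the submitters' processing notes) and, per the file headers, 11.0.1.1 for IE vs ME. The deposited log10 ratio is Cy5 over Cy3 after background subtraction and LOWESS dye normalization. The deposited p-value is that of the software for a single spot and concerns the pools on that array, not conditions. The deposited intensity values are mean or median, background and processed signals. The value table equals the ratio of processed signals for 100% of spots within 0.001 (log10), where the second array of a swap has the opposite sign.

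Outlier spots were dropped, spots of a probe averaged (p by median), ratios converted to log2 and turned, and the 2 arrays averaged. The IE vs ME files lack gene names and were joined by probe. Sample records call the arrays of a swap different pools, while the methods describe 1 pool per group, which was followed. Depth is limited by the number of arrays. The fold cut-offs (1.5 and 0.75, stated there relative to CONT) and the p threshold of 0.01 are those of the study's methods. Requiring them on Cy5/Cy3 in opposite dye orientations and on both arrays is the form used here, which the methods do not spell out, so counts of calls need not match the study's gene lists. Alternatives used normexp (offset 50) with limma 3.58.1 in R 4.3.3. Named pathway genes were those called, Keap1, Gclc, Gclm, Gsr, Hmox2, Ccs, Prdx1 and Txnrd1, and, among probes well above background, the 3 largest per comparison that kept their sign. The members and lists were chosen with earlier results of these data known. The script was tested on simulated data with changes far larger than the ratios of the antioxidant probes. That test does not show whether changes of the size seen here would be called. Coordinates are rn3 as listed for the probes. Python 3.11.15, numpy 2.4.6 and pandas 2.3.3 were used. Sequences of 4 of the 12 probes are printed, and 1 other was left out as not reported here.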

Additional observations from a re-analysis of the deposited data

How the results depend on the processing

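No paired analysis was possible because the replicate numbers mark the 2 dye orientations of 1 pair of pools. The counts of called antioxidant probes were 0 in all 3 comparisons under every alternative that kept both arrays (no p threshold, 1.5-fold on each array, only probes well above background, normexp and loess, loess without background subtraction, the deposited value table, outlier spots kept). Of these, only dropping the p threshold and the other background corrections could have added a call. The 12 probes were all well above background, and none of their spots was an outlier. The deposited value table gave the same ratios, and 1.5-fold on each array is a stricter limit than the main one. Leaving out an array of ME vs CONT gave 1 call whichever array was left out (lowest 1, highest 1), Gpx3 each time in opposite directions. The median of the 12 probes in IE vs CONT was 0.049, and it was 0.021 with normexp (offset 50) and loess, 0.030 with loess without background subtraction, and 0.028 to 0.043 when an array was left out. In IE vs CONT and IE vs ME the count stayed at 0 without either array. The medians in ME vs CONT and IE vs ME moved by less than the spread between arrays. Of the 36 probe ratios, 3 moved by more than their SD with normexp (Sod3 in ME vs CONT, to 0.029, and Gpx3 and Nfe2l2 in IE vs ME) and 2 without background subtraction (the same Gpx3 and Nfe2l2 values), and 1 changed sign (Nqo1 in IE vs CONT, -0.018 with normexp). The cause was not tested. Each group is 1 pool of 5 rats, so these values describe the pools. Gpx3, Nqo1 and Hmox1 stood close to background, as did Cat in IE vs ME (3.8 to 4.3 times), which limits their ratios.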

Other observations

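The ME and IE pools were read on both slides, so the change of each probe's processed signal from the first slide to the second can be set side by side for the 2 pools. Among 24716 probes well above background in every reading the median change was -0.50 (log2) for ME and -0.52 for IE, and 5% of probes fell below -1.68 and -1.70. Cat changed by -1.79 in ME and -1.63 in IE and Nfe2l2 by -1.58 and -1.61, which is near the low end of the array. The second Gpx1 probe rose instead, by 0.54 and 0.57, while the first changed by -0.032 and 0.018, although both probes report the same gene. Sod1, Sod2 and Hmox1 changed by -0.34 to -0.66 with either probe or pool. The values differ in slide, scan and software version at once, which cannot be told apart, so these shifts are given as a description and no level in the comparisons above was set across slides.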
